A study of Mus musculus with 4 samples.

Results

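The histone genes of Lgr5+ and Lgr6+ progenitors were taken as the rows of the deposited table whose symbol starts with Hist1h to Hist4h, H2af, H3f3 or H1f. These were 84 of 23997 genes, of which 68 were clustered genes, named after the clusters Hist1 to Hist4, and 16 were genes of replacement variants. The RNA-Seq compared EGFP+ cells that FACS isolated from Lgr5-EGFP-IRES-creERT2 mouse cochleae with EGFP+ cells isolated likewise from Lgr6-EGFP-IRES-CreERT2 mice, both labelled as C57BL/6 and both taken at P3 with no treatment named in the labels. In each line 1 Lgr gene drives EGFP and an inducible Cre, and every sorted cell of both populations came from such a reporter animal, so the populations also differ in the reporter allele. The labels give 2 samples per population, and the study's methods describe 3 fractions of 1 RNA extract for each, so the samples may be technical replicates. The table holds 1 combined FPKM value (mapped fragments, scaled for transcript length and library size) for each population, so no difference below has a replicate check, no test was made, and genes are called higher or lower only as a description of these values.

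Histones are the proteins on which DNA is wound in the nucleus, with H2A, H2B, H3 and H4 forming the core particle and H1 binding the linker DNA between particles. Most core and linker histones are made during S phase from clustered genes without introns, whose mRNAs end in a conserved stem-loop that is bound by SLBP and carry no poly(A) tail in most dividing cells. Replacement variants such as H2A.Z, H3.3 and H1.0 come from single genes with polyadenylated mRNAs and are made throughout the cell cycle, also in cells that no longer divide. The libraries were made with a kit that primes cDNA from poly(A) tails, so the values of clustered genes describe those transcripts that the kit captured and not all of their mRNA.

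The stem-loop is shown first because it is the feature of the clustered mRNAs that bears on their capture. It was searched as GGNNCTTTTCAGNNCC on the sense strand of the GENCODE M1 mouse transcripts, matched by symbol, and the capitals mark the match, with 5 flanking bases on each side.
Hist3h2ba: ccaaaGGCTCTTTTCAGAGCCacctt
Hist1h1e: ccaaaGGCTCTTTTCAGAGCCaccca
Hist3h2a: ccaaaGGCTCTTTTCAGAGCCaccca
Hist2h2aa1: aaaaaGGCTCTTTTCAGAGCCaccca
Hist1h2ae: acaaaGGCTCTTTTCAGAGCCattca
Hist1h1c: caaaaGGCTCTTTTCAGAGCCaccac
Hist1h4d: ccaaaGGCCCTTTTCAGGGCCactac
Hist1h4c: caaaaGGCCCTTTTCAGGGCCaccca
These letters were found in 36 of 66 clustered genes with a transcript (54.5%), in 0 of 12 replacement genes with a transcript and in 45 of 22611 genes overall (0.199%). Of the 36 clustered genes, 28 carried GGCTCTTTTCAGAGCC, and the 6 with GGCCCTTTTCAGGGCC and the 2 with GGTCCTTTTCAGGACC were all H4 genes. The annotated transcript went on for 3 to 3050 bases after the stem-loop, and it ended within 50 bases of it in 22 genes and more than 100 bases after it in 11 genes. The 22 genes with the near end had a median FPKM of 0 in Lgr5+ and 0.252 in Lgr6+ progenitors, and the 11 with the far end had medians of 3.54 and 4.22. These ends are those of GENCODE M1, while the FPKM rest on the authors' RefGene annotation. Its intervals can be shorter, with 508 bases for *Hist3h2a* against a transcript of 1990, and 776 for *Hist1h1d* against 3821. The far group also holds *Hist2h3c1*, whose match has the flanking bases of *Hist2h2aa1* and may not mark its own end. The medians thus do not compare ends of the quantified transcripts. *Hist1h1e* and *Hist1h4d*, which are abundant below, were among those that ended near the stem-loop, with 27 and 25 annotated bases after it. *Hist1h2bc*, *Hist1h2ap*, *Hist2h2ac* and *Hist2h2be* held no match, which says only that these letters were not in their annotated transcripts.

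Over all genes the summed FPKM was 754163 in Lgr5+ and 627932 in Lgr6+ progenitors, and 9439 and 8215 genes were listed at 0. The median difference in log2(FPKM + 1), Lgr6+ minus Lgr5+, was 0.03 over the 13436 genes kept, which are those that reached 1 FPKM in either population. By 1.5-fold or more, 28.5% of all kept genes were higher in Lgr6+ and 23.3% in Lgr5+ progenitors. Of 7 supporting cell genes 1 (14.3%) was higher in Lgr6+ and 2 (28.6%) in Lgr5+ progenitors. *Sox2* was at 140 in Lgr5+ and 54.8 in Lgr6+ progenitors, and *S100a1*, under 1.5-fold, at 2959 and 3177. *Lgr5* was at 9.65 and 25.0, and *Lgr6* at 2.06 and 2.90. *Lgr5* itself was thus higher in the Lgr6+ than in the Lgr5+ population, and *Lgr6* differed by less than 1.5-fold. The paper describes Lgr6+ cells as a subpopulation of Lgr5+ progenitors. Any part of the reporter alleles in the *Lgr5* and *Lgr6* values was not tested. Markers of other cells in the cochlea differed between the populations. All 6 kept macrophage genes were higher in Lgr6+ progenitors by 1.5-fold or more, where the 7 listed genes summed to 186 against 3.53, and *C1qb*, *C1qc*, *Tyrobp* and *Csf1r* were listed at 0 in Lgr5+ progenitors. Of 6 hair cell genes 4 (66.7%) were higher in Lgr6+ and 0 in Lgr5+ progenitors, against 28.5% and 23.3% of all kept genes, with a median difference of 0.67. *Myo7a* was at 19.3 in Lgr5+ and 47.0 in Lgr6+ progenitors and *Gfi1* at 19.5 and 55.5. *Atoh1*, at 30.9 and 36.4, and the most abundant, *Pvalb*, at 477 and 408, did not pass 1.5-fold. The hair cell list summed to 666 and 740, and none of its genes was at 0. The sums were 51.6 in Lgr6+ against 4.92 in Lgr5+ progenitors for endothelial genes, 401 against 49.6 for mesenchyme and fibrocyte genes and 197 against 72.9 for Schwann cell genes, whereas erythroid genes summed to 108 in Lgr6+ and 630 in Lgr5+ progenitors. The part of such cells in the histone values was not tested, and in sorted bulk RNA fewer cells of a type and less RNA per cell cannot be told apart.

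Replacement genes held more of the histone FPKM than clustered genes in both populations. The 16 replacement genes summed to 3185 in Lgr5+ and 3380 in Lgr6+ progenitors, a ratio of 1.06, and the 68 clustered genes summed to 1506 and 1513, a ratio of 1.00. The clustered sum was 0.200% of all FPKM in Lgr5+ and 0.241% in Lgr6+ progenitors, and the replacement sum was 0.422% and 0.538%. *H3f3a* alone, at 1134 and 1366, stood at percentile 99.1 of the kept genes in Lgr5+ and 99.5 in Lgr6+ progenitors. Of the clustered genes 13 were listed at 0 in both populations, 21 in Lgr5+ only, 6 in Lgr6+ only, and 28 were above 0 in both. Over all genes 1847 were listed at 0 in Lgr5+ only and 623 in Lgr6+ only, so the excess of zeros in Lgr5+ progenitors was present over all genes as well. The lowest value above 0 among the 45 clustered genes with intervals of 400 to 560 bases was 0.415 in Lgr5+ progenitors, for *Hist1h3g*, and 0.111 in Lgr6+ progenitors, for *Hist1h2ad*. *Hist2h2aa2*, just outside that length range, was at 0.00186 and 0.00159. It has the same interval as *Hist2h2aa1*, so its values say little about the lowest level that could be listed. The depth behind a 0 is unknown.

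**Figure D1:**
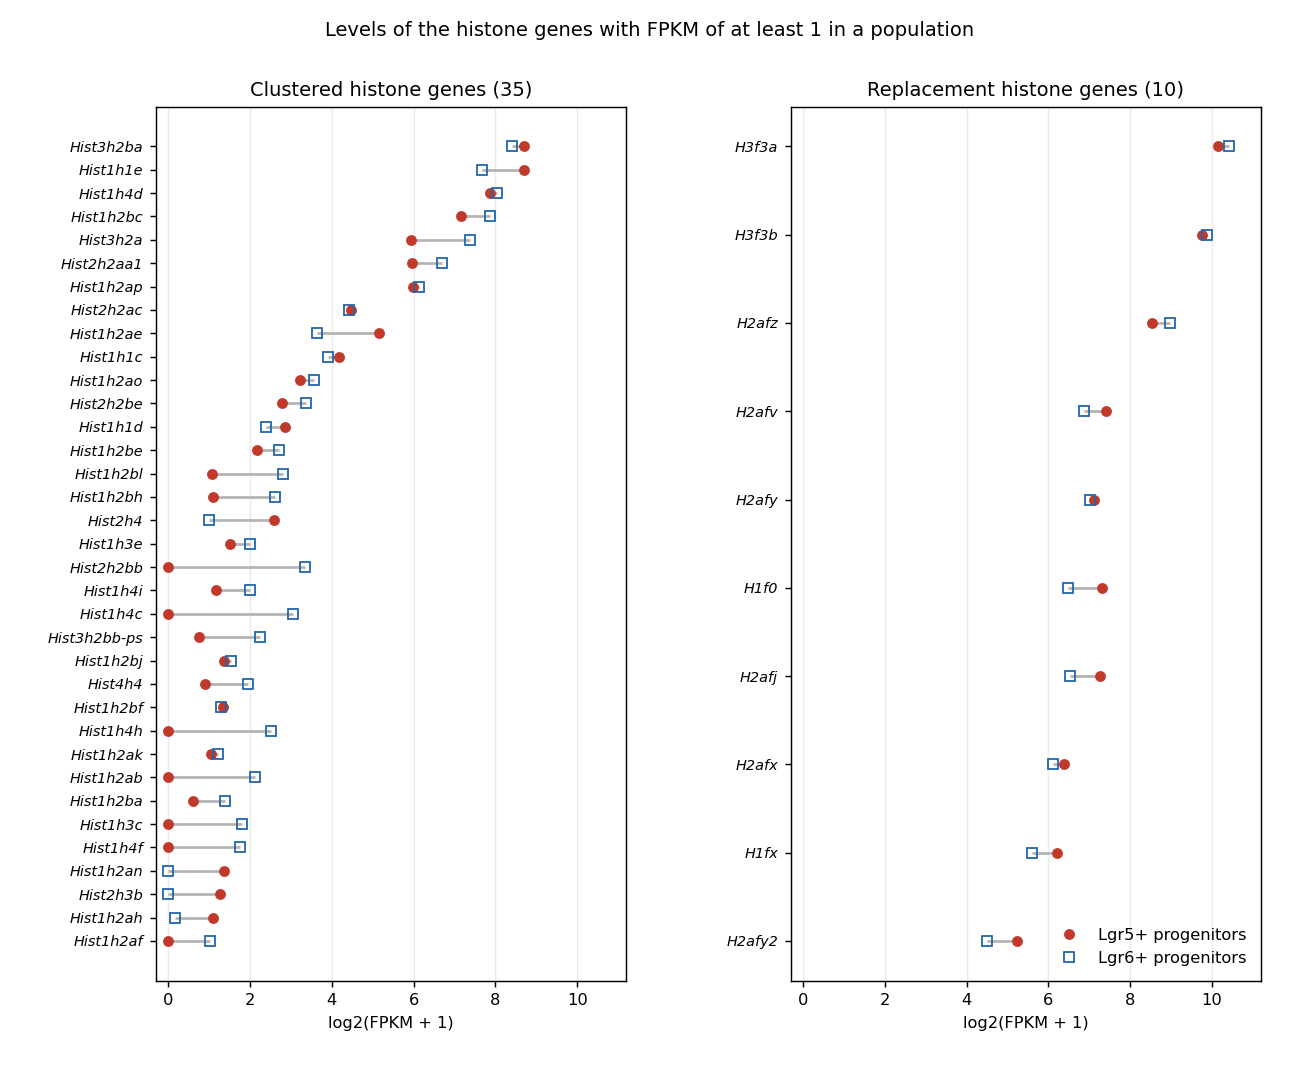
The horizontal axes show log2(FPKM + 1) of the 35 clustered and 10 replacement genes that reached 1 FPKM in either population, with filled circles for Lgr5+ and open squares for Lgr6+ progenitors, 1 combined value each. A small number of clustered genes reached the level of the replacement genes, and 7 of the 35 lay at 0 in Lgr5+ and above 1 FPKM in Lgr6+ progenitors.

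Of the 68 clustered genes 35 were kept, which were 3 of 6 H1, 11 of 18 H2A, 11 of 19 H2B, 3 of 12 H3 and 7 of 13 H4 genes. Of the 33 others 13 were listed at 0 in both populations, and the highest value of the rest was 0.930, of *Hist1h4k* in Lgr6+ progenitors. Of the 35, 17 (48.6%) were higher in Lgr6+ progenitors by 1.5-fold or more in log2(FPKM + 1), against 28.5% of all kept genes, and 6 (17.1%) were higher in Lgr5+ progenitors, against 23.3%. After quantile normalization the counts were 13 and 9 of 36, a narrower split, and the shares of all genes were not calculated for it. The median difference of the 35 was 0.54 against 0.03 over all kept genes, and the differences ran from -1.58 to 3.34. Of the 17, 7 were listed at 0 in Lgr5+ progenitors, and of the 6, 2 were listed at 0 in Lgr6+ progenitors. Among the 22 clustered genes that reached 1 FPKM in both populations, 7 (31.8%) were higher in Lgr6+ progenitors, against 21.4% of all such genes, and 3 (13.6%) in Lgr5+ progenitors, against 22.5%, and their median difference was 0.18. Most of the calls came from low genes. Of the 24 kept clustered genes under 10 FPKM in both populations 14 were higher in Lgr6+ progenitors, against 37% of all kept genes at that level, and 4 in Lgr5+ progenitors, against 20.9%. Of the 11 that reached 10 FPKM in a population 3 were higher in Lgr6+ progenitors, against 22% at that level, and 2 in Lgr5+ progenitors, against 25.2%.

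The replacement genes gave another picture. Of 16 genes 10 were kept. By 1.5-fold or more, 4 were higher in Lgr5+ progenitors (40.0% against 23.3% of all kept genes) and 0 in Lgr6+ progenitors (against 28.5%), with a median difference of -0.40 and a range from -0.83 to 0.44. After quantile normalization 2 of 10 were higher in each direction, with *H2afz* at 0.68 and *H3f3a* at 0.69 toward Lgr6+ progenitors. The shares of all genes were not calculated for that setting. *H1fx*, at a difference of -0.59, and *Hist2h2be*, at 0.59, lay just past the 1.5-fold threshold of 0.58, and *H2afv*, at -0.55, and *Hist1h2be*, at 0.54, just within it.

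**Figure D2:**
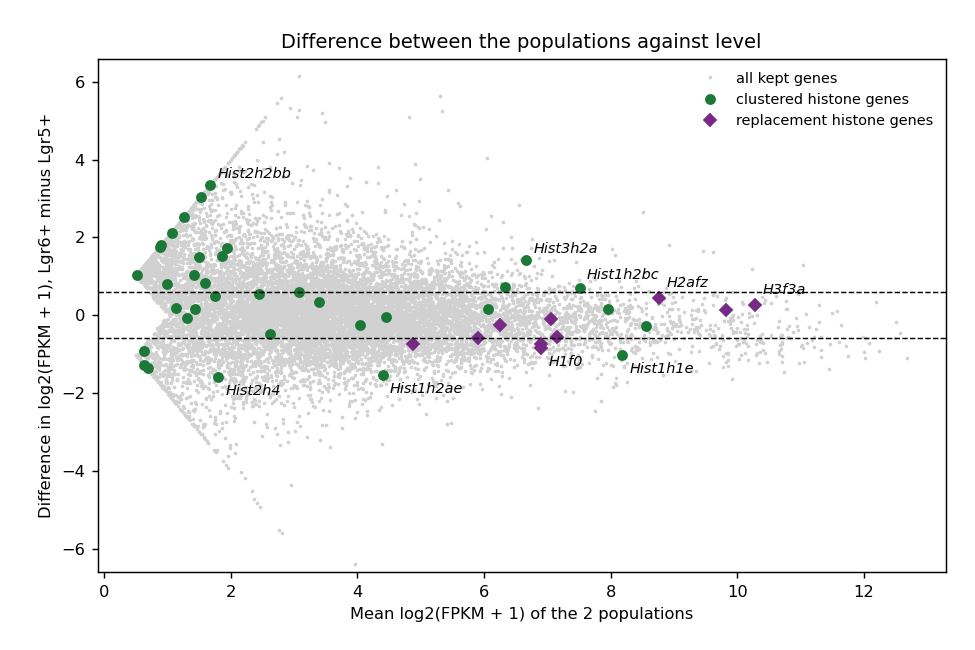
The vertical axis shows the difference in log2(FPKM + 1), Lgr6+ minus Lgr5+, and the horizontal axis the mean log2(FPKM + 1) of the populations, for all 13436 kept genes in grey, clustered histone genes as circles and replacement genes as diamonds. The dashed lines mark 1.5-fold. The clustered genes past the upper line lay mostly at low means, and the 4 replacement genes past the lower line lay at higher means.

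A few genes supplied most clustered histone FPKM. The 5 highest held 83.8% of it in Lgr5+ and 79.3% in Lgr6+ progenitors, and the 12 highest 97.8% and 95.0%. In order of their mean level these were *Hist3h2ba*, *Hist1h1e*, *Hist1h4d*, *Hist1h2bc*, *Hist3h2a*, *Hist2h2aa1*, *Hist1h2ap*, *Hist2h2ac*, *Hist1h2ae*, *Hist1h1c*, *Hist1h2ao* and *Hist2h2be*, which include no H3 gene. The 57 clustered genes under 10 FPKM in both populations together summed to 39.2 in Lgr5+ and 85.2 in Lgr6+ progenitors, a ratio of 2.17, while the 11 others summed to 1466 and 1428.

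The linker histones were lower in Lgr6+ progenitors in each kept gene. H1 proteins compact the chromatin fibre by binding where DNA enters and leaves the core particle. The H1 genes summed to 668 in Lgr5+ and 357 in Lgr6+ progenitors, a ratio of 0.535, while the sums of the core families were each higher in Lgr6+ progenitors. *Hist1h1e*, which encodes H1.4 and lies at chr13:23621777-23622558 (mm10), was at 413 in Lgr5+ and 203 in Lgr6+ progenitors, and the difference was -1.02. *H1f0*, which encodes the replacement linker histone H1.0, typical of differentiated cells, was at 158 and 88.5, with a difference of -0.83. *H1fx*, the gene of H1.10, was at 72.7 and 47.9, and it was the third of 5 kept H1 genes past 1.5-fold (60.0%, against 23.3% of all kept genes). After quantile normalization *H1fx*, at -0.51, lay within 1.5-fold and *Hist1h1d*, at -0.66, past it.

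Both remaining kept H1 genes had smaller differences in the same direction. *Hist1h1c*, which encodes H1.2, was at 17.0 in Lgr5+ and 14.0 in Lgr6+ progenitors, and *Hist1h1d*, which encodes H1.3, was at 6.24 and 4.22. *Hist1h1a* was at 0.382 and 0, *Hist1h1b* at 0 and 0.203, and the testis gene *Hist1h1t* was listed at 0 in both populations, as was the oocyte gene *H1foo*, while the spermatid gene *H1fnt* was at 0.113 and 0. The sum of H1 FPKM over that of all core histones was 0.166 in Lgr5+ and 0.0788 in Lgr6+ progenitors. The ratio of *Hist1h1e* to *H1f0*, at 2.61 and 2.29, differed less than their levels did.

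**Figure D3:**
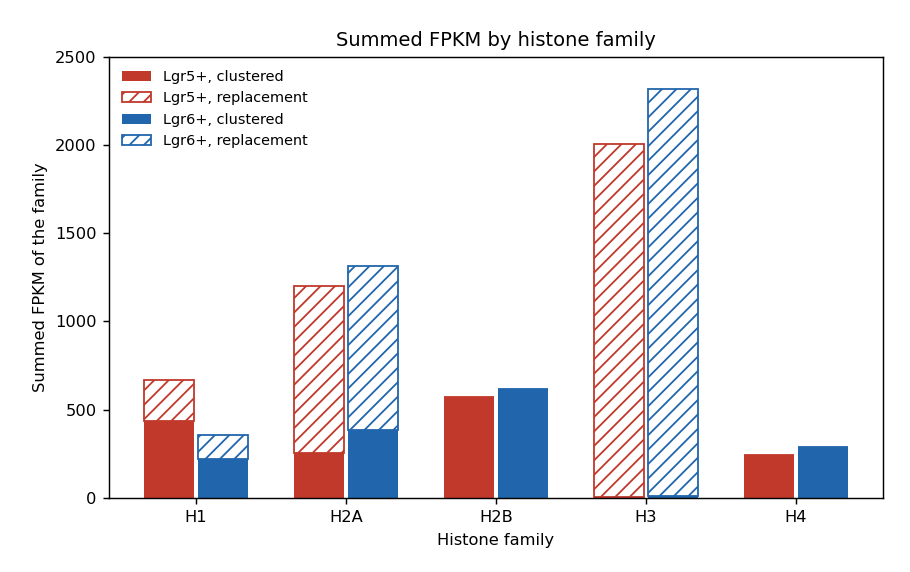
Bars show the summed FPKM of each histone family in Lgr5+ (red) and Lgr6+ (blue) progenitors, from 0, with filled parts for clustered and hatched parts for replacement genes, 1 combined value per bar. The H1 sum was 668 in Lgr5+ against 357 in Lgr6+ progenitors, and nearly all H3 came from replacement genes. The members include no replacement gene of H2B or H4.

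The promoters of *Hist1h1e* and *Hist1h1c* are shown because both belong to the family that was lower in Lgr6+ progenitors in each kept member. They are the 250 bases before the start in RefSeq (GRCm38.p6), at chr13:23622559-23622808 on the minus strand for *Hist1h1e* and at chr13:23738557-23738806 on the plus strand for *Hist1h1c*, and capitals mark the CCAAT box, the TATA box TATAAA or the H1 box AAACACA on either strand.
Hist1h1e: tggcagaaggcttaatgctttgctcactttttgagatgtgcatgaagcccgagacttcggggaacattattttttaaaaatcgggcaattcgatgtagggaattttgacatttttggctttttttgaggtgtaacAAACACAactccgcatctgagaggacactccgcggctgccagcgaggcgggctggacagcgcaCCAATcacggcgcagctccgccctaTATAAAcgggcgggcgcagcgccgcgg
Hist1h1c: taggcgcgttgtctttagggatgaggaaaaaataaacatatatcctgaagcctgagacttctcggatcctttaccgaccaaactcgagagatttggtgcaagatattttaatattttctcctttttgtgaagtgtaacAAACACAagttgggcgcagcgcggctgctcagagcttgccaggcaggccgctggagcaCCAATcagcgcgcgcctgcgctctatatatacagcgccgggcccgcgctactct
In both, the H1 box preceded a CCAAT, with first bases at -115 and -52 in *Hist1h1e* and at -112 and -54 in *Hist1h1c*, counted back from the start. The H1 box was found in 5 of 6 clustered H1 promoters, 2 of 16 clustered H2A, 2 of 16 clustered H2B, 0 of 9 clustered H3 and 0 of 12 clustered H4 promoters. It was also found in 1 of 14 replacement promoters and in 6.25% of the 32851 promoters of the table. None of these motifs, nor the octamer ATTTGCAT, was found in the 250 bases before the start of *H1f0*, and bases further upstream were not searched. A link between motifs and levels was not tested. CCAAT was found in 49 of 59 clustered and 8 of 14 replacement promoters, against 33.8% of all. TATAAA was found in 29 of 59 and 1 of 14, against 12.4%. A match is a description of letters and not of a bound factor.

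H2A was the family with the most variants. Its clustered genes summed to 253 in Lgr5+ and 386 in Lgr6+ progenitors, a ratio of 1.53, and its replacement genes to 950 and 932. Of 11 kept clustered H2A genes 4 (36.4%) were higher in Lgr6+ and 3 (27.3%) in Lgr5+ progenitors, not far from the 28.5% and 23.3% of all kept genes, with a median difference of 0.18. *Hist3h2a*, at chr11:58954685-58955192, was at 60.7 in Lgr5+ and 165 in Lgr6+ progenitors, a difference of 1.43. *Hist1h2ae*, at chr13:23570663-23571220, went the other way, at 34.7 and 11.4, a difference of -1.52. *Hist2h2aa1* was at 61.7 and 102, whereas *Hist1h2ap*, at 62.3 and 69.2, and *Hist2h2ac*, at 21.2 and 20.4, did not pass 1.5-fold.

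Lower clustered H2A genes were split as well. *Hist1h2ab* was listed at 0 in Lgr5+ and was at 3.36 in Lgr6+ progenitors, while *Hist1h2an*, at 1.58 in Lgr5+ progenitors, was listed at 0 in Lgr6+ progenitors. *Hist1h2ah* was at 1.12 and 0.115, and *Hist1h2ao* at 8.31 and 10.7. The remaining kept genes were *Hist1h2ak*, at 1.05 and 1.32, and *Hist1h2af*, listed at 0 and at 1.04, both named after their values were seen.

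Of the replacement H2A genes, those of the 2 forms of H2A.Z differed in opposite directions without passing 1.5-fold in the deposited values. H2A.Z marks the first core particles of promoters and is exchanged into chromatin by the SRCAP and p400 complexes. *H2afz* was at 372 in Lgr5+ and 505 in Lgr6+ progenitors, a difference of 0.44, and *H2afv* was at 170 and 116, a difference of -0.55. The ratio of *H2afz* to *H2afv* was thus 2.19 in Lgr5+ and 4.35 in Lgr6+ progenitors, a larger contrast than either gene showed alone.

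The other H2A variants were lower in Lgr6+ progenitors or near equal. *H2afj*, a variant known to accumulate in ageing cells with DNA damage, was at 152 in Lgr5+ and 91.4 in Lgr6+ progenitors, a difference of -0.73, or -0.57 and within 1.5-fold after quantile normalization. *H2afy2*, the gene of macroH2A2, was at 36.9 and 21.8, also past 1.5-fold, while *H2afy*, the gene of macroH2A1, was at 137 and 129. MacroH2A carries a large extra domain and is abundant on the inactive X chromosome. *H2afx*, whose product is phosphorylated at DNA breaks, was at 81.8 and 68.6, and *H2afb1*, *H2afb2*, *H2afb3* and *H2afy3* were listed at 0 in both populations.

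H2B has no replacement gene among the members, since the symbol rule admits none, and *Hist3h2ba* and *Hist1h2bc* made up most of it. The family summed to 572 in Lgr5+ and 615 in Lgr6+ progenitors. *Hist3h2ba*, at chr11:58948911-58949372, was at 412 in Lgr5+ and 340 in Lgr6+ progenitors, a difference of -0.28, while *Hist1h2bc*, at chr13:23684199-23692480, was at 142 and 231, a difference of 0.69. Their ratio was 2.89 in Lgr5+ and 1.47 in Lgr6+ progenitors.

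Of 11 kept H2B genes 7 (63.6%) were higher in Lgr6+ and 0 in Lgr5+ progenitors, against 28.5% and 23.3% of all kept genes, with a median difference of 0.69. All of the 7 but *Hist1h2bc* lay under 10 FPKM, where 37% of all kept genes were higher in Lgr6+ progenitors. *Hist2h2bb* was listed at 0 in Lgr5+ and was at 9.10 in Lgr6+ progenitors, which put it highest among the members listed at 0 in Lgr5+ progenitors. *Hist1h2bl* was at 1.09 and 5.98, *Hist1h2bh* at 1.13 and 5.13, and *Hist2h2be* at 5.90 and 9.36. The pseudogene *Hist3h2bb-ps*, at 0.688 and 3.75, and the testis gene *Hist1h2ba*, at 0.513 and 1.63, were also among the 7. *Hist1h2be*, at 3.54 and 5.58, *Hist1h2bj*, at 1.56 and 1.88, and *Hist1h2bf*, at 1.54 and 1.43, lay within 1.5-fold. These last 5 genes were named after their values were seen.

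H3 came almost wholly from the genes of H3.3, which encode the same protein and are deposited outside replication by HIRA and by DAXX with ATRX. *H3f3a*, at chr1:180802568-180813603, was at 1134 in Lgr5+ and 1366 in Lgr6+ progenitors, and *H3f3b*, at chr11:116021961-116024504, was at 869 and 946, with differences of 0.27 and 0.12. They held 99.8% of H3 FPKM in Lgr5+ and 99.7% in Lgr6+ progenitors. The 12 clustered H3 genes together summed to 4.07 and 6.59, and the highest of them, *Hist1h3e*, reached 1.83 and 2.98. *Hist1h3c* was listed at 0 in Lgr5+ and was at 2.49 in Lgr6+ progenitors, and *Hist2h3b* was at 1.41 in Lgr5+ and listed at 0 in Lgr6+ progenitors. The clustered genes of H2A, H2B and H4 summed to 253, 572 and 240 FPKM in Lgr5+ progenitors, so the clustered H3 sum was the low one among the core families.

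H4 has no replacement gene among the members, and 1 gene supplied nearly all of it. *Hist1h4d*, at chr13:23581602-23581969, was at 233 in Lgr5+ and 262 in Lgr6+ progenitors, which was 97.04% and 92.11% of H4 FPKM. Of 7 kept H4 genes 5 were higher in Lgr6+ progenitors (71.4%, against 28.5% of all kept genes and 37% of those under 10 FPKM, as all 5 were), of which *Hist1h4c*, at 7.24, *Hist1h4h*, at 4.71, and *Hist1h4f*, at 2.37, were listed at 0 in Lgr5+ progenitors. *Hist2h4* was the exception, at 4.999 in Lgr5+ and 1.01 in Lgr6+ progenitors, a difference of -1.58. *Hist1h4i*, at 1.25 and 2.99, and *Hist4h4*, at 0.865 and 2.85, completed the 5 and were named after their values were seen. CCAAT was found in 3 of 12 clustered H4 promoters, against all 16 of H2A and all 16 of H2B.

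By cluster, Hist1 on chromosome 13 held 54 of the genes and summed to 936 in Lgr5+ and 860 in Lgr6+ progenitors. Hist2 on chromosome 3, with 10 genes, summed to 95.2 and 142, and Hist3 on chromosome 11, with 3 genes, to 473 and 508. The single gene of Hist4 on chromosome 6, *Hist4h4*, was at 0.865 and 2.85. In the Hist1 cluster single high genes stood beside genes at much lower levels. *Hist3h2ba* and *Hist3h2a*, which share the Hist3 cluster, differed in direction in the deposited values, although the difference of *Hist3h2ba* turned positive after quantile normalization, and their ratio was 6.78 in Lgr5+ and 2.06 in Lgr6+ progenitors. The promoters of this pair are shown for that reason (RefSeq, GRCm38.p6, plus strand), at chr11:58948661-58948910 for *Hist3h2ba* and chr11:58954435-58954684 for *Hist3h2a*, with capitals for the CCAAT box, the TATA box TATAAA and the octamer ATTTGCAT on either strand.
Hist3h2ba: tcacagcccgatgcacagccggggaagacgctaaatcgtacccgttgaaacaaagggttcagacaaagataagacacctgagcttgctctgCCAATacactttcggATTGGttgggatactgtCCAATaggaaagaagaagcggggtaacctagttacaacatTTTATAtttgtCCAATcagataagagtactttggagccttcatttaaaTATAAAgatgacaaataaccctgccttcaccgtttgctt
Hist3h2a: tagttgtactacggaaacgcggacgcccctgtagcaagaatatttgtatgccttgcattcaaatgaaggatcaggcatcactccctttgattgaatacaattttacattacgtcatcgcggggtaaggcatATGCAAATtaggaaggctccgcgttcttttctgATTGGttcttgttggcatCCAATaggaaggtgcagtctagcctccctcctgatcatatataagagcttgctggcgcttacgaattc
*Hist3h2a* held the octamer, on the minus strand with its first base at -119, and no TATAAA, while *Hist3h2ba* held TATAAA and no octamer. The octamer was found in 7 of 16 clustered H2A and 6 of 16 clustered H2B promoters and in 0 of the clustered H1, H3 and H4 promoters. It was also found in 1 of 14 replacement promoters and in 1.60% of all promoters.

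**Figure D4:**
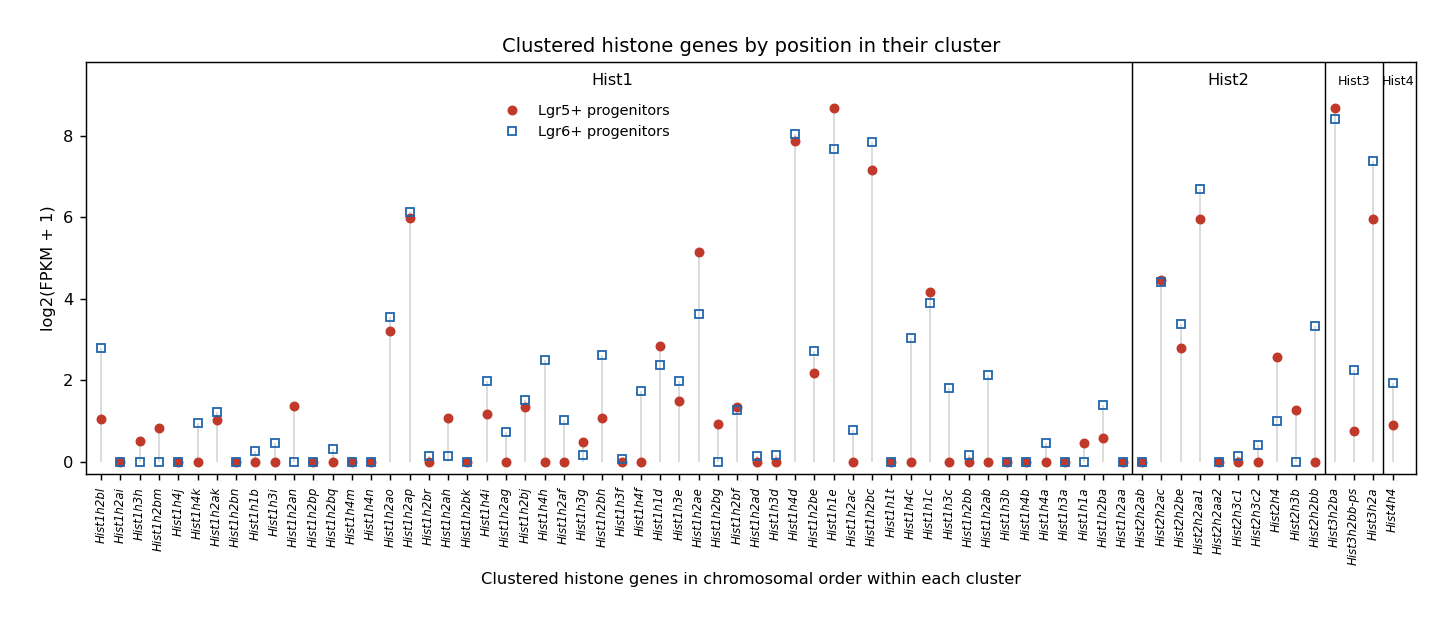
The vertical axis shows log2(FPKM + 1) of all 68 clustered genes, in chromosomal order along the horizontal axis within each cluster, with filled circles for Lgr5+ and open squares for Lgr6+ progenitors. High genes such as *Hist1h4d*, *Hist1h1e* and *Hist1h2bc* stood beside genes at much lower levels, and 5 genes of the Hist1 cluster exceeded 5 on this scale in at least 1 population.

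Head-to-head pairs of H2A and H2B genes, whose starts lay 163 to 280 bases apart on opposite strands, differed in level between the partners. Starts were taken from the RefSeq promoters of 59 clustered genes, among which there were 9 such pairs, all on chromosome 13. Clustered genes without such a promoter, among them *Hist1h2bc* and *Hist2h2be*, could not be searched for pairs. *Hist1h2ap* was at 62.3 in Lgr5+ and 69.2 in Lgr6+ progenitors, while its partner *Hist1h2br* was at 0 and 0.107. Every 150-base stretch of both transcripts also occurs in transcripts of other genes, so the levels of this pair are uncertain as those of single genes. *Hist1h2ae* was at 34.7 and 11.4, while its partner *Hist1h2bg* was at 0.911 and 0. Of their 150-base stretches 24.5% and 39.0% were shared with other genes. In 5 of the 9 pairs 1 partner was listed at 0 in both populations. Outside the pairs of *Hist1h2ap* and *Hist1h2ae* the levels were low, and the highest was 5.98, of *Hist1h2bl* in Lgr6+ progenitors. Shared stretches in these other pairs ran from 0% in *Hist1h2ak* to 72.5% in *Hist1h2an*, so their differences are uncertain too.

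Near-identical copies limit how far single clustered genes can be told apart, since the authors' counting may have split or moved their reads. Of the 66 clustered genes with a transcript, 17 shared no 150-base stretch with a transcript of another gene, and 6 shared all of them. *Hist2h2aa1*, *Hist1h2ap* and *Hist1h2ao* belong to the latter, and the table gives *Hist1h2ap* and *Hist1h2ao* the same interval, chr13:21833024-21833575, with different values, and *Hist2h2aa1* the same interval as *Hist2h2aa2*, which was at 0.00186 in Lgr5+ and 0.00159 in Lgr6+ progenitors. The values of these genes are therefore uncertain as those of single genes.

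The median differed between genes with and without shared sequence. Of the 11 kept clustered genes without a shared stretch 3 were higher in Lgr6+ progenitors, *Hist2h2be*, *Hist2h2bb* and *Hist4h4*, and 2 in Lgr5+ progenitors, *Hist1h1e* and *Hist2h4*, with a median difference of -0.05. These shares, 27.3% and 18.2%, were near the 28.5% and 23.3% of all kept genes. They summed to 1115 in Lgr5+ and 867 in Lgr6+ progenitors. Of the 23 kept genes with shared stretches 13 (56.5%) were higher in Lgr6+ and 4 (17.4%) in Lgr5+ progenitors, with a median of 0.71, and they summed to 387 and 638. The positive median over all 35 was thus not found among the genes without shared stretches. The 7 kept genes that shared most ran from 56.8% in *Hist1h2ah* to 100% in *Hist2h2aa1*. Of these, *Hist2h2aa1* and *Hist1h2af* were higher in Lgr6+, and *Hist1h2an*, *Hist2h3b* and *Hist1h2ah* in Lgr5+ progenitors. All of those called but *Hist2h2aa1* were at 1.58 FPKM or less in both populations, so these few calls rest on low values. *Hist1h4f* and *Hist1h4i*, higher in Lgr6+ progenitors, shared 1.2% and 3.1%, and *Hist1h2be* and *Hist1h3e*, within 1.5-fold, 3.0% and 4.4%. *Hist3h2a* shared sequence only with *Trim17*. Which copies the reads came from, and any part of this in the differences, was not tested.

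**Figure D5:**
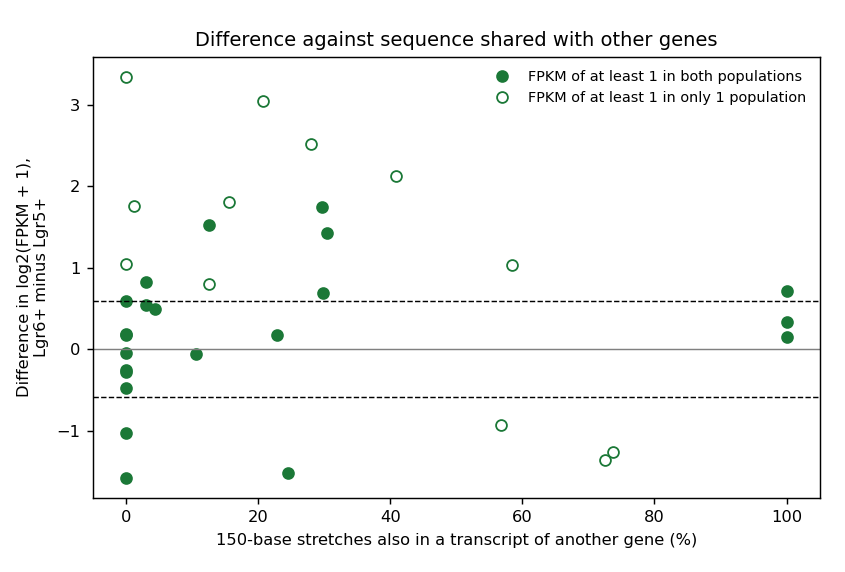
The vertical axis shows the difference in log2(FPKM + 1), Lgr6+ minus Lgr5+, and the horizontal axis the percentage of a gene's 150-base stretches that also occur in a transcript of another gene, for the 34 kept clustered genes with a transcript. Filled circles reached 1 FPKM in both populations and open circles in 1 of them. The genes at 0% lay on both sides of 0, and the genes over 50% ran from -1.37 to 1.03.

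The genes that make and trim clustered histone mRNAs did not stand out by their counts. Of 15 kept genes of 16 listed, 4 (26.7%) were higher in Lgr6+ and 3 (20.0%) in Lgr5+ progenitors, against 28.5% and 23.3% of all kept genes, with a median difference of 0.33. *Slbp*, whose product binds the stem-loop, was at 26.5 in Lgr5+ and 41.9 in Lgr6+ progenitors, a difference of 0.64, and *Ncbp2*, a cap-binding subunit, at 19.1 and 44.4. *Cpsf3*, the endonuclease that cleaves histone pre-mRNAs, was at 39.6 and 18.6, *Lsm10*, of the U7 particle, at 57.3 and 31.3, and its partner *Lsm11* at 2.96 and 0.512. *Cstf2* was at 4.36 and 7.85, the S phase transcription factor *E2f1* at 0.318 and 1.62, and *Npat*, the coactivator of clustered histone genes, at 3.96 and 5.41, under 1.5-fold.

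Chaperones of replication histones included *Chaf1b*, which of the genes in the histone supply, deposition and S phase lists had the largest difference toward Lgr5+ progenitors. Of 13 kept genes of 14 listed, 4 (30.8%) were higher in Lgr6+ and 6 (46.2%) in Lgr5+ progenitors, against 28.5% and 23.3% of all kept genes, with a median difference of -0.12. *Chaf1b*, a subunit of CAF-1 that deposits new H3 and H4 behind the replication fork, was at 15.6 in Lgr5+ and 0.919 in Lgr6+ progenitors, a difference of -3.11, and its partner *Chaf1a* was at 1.38 and 0.338. *Nap1l1*, a chaperone of H2A and H2B, was at 160 and 66.2. *Hat1*, which acetylates new H4, was at 10.8 and 36.9, a difference of 1.68, *Rbbp7* was at 38.0 and 60.2, and *Asf1b*, which hands H3 and H4 to CAF-1, was listed at 0 in Lgr5+ and was at 1.29 in Lgr6+ progenitors.

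Genes that deposit replacement histones lay within 1.5-fold in most cases. All 17 genes of the list found in the table were kept, and 0 were higher in Lgr6+ and 4 (23.5%) in Lgr5+ progenitors, against 28.5% and 23.3% of all kept genes, with a median difference of -0.23. *Vps72*, which carries H2A.Z, was at 111 in Lgr5+ and 58.7 in Lgr6+ progenitors, *Hira* at 7.32 and 3.89, and *Supt16*, a subunit of FACT, at 20.2 and 11.7. The 3 largest differences toward Lgr6+ progenitors, in *Hjurp* at 0.706 and 1.12, *Ubn2* at 9.98 and 12.6 and *Ruvbl1* at 51.4 and 62.3, did not pass 1.5-fold. *Cenpa*, the centromeric H3 variant outside the symbol rule, was at 0.540 and 15.1, a difference of 3.38, the largest of any histone gene named here, although its loader *Hjurp* differed little.

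The counts of S phase genes were near those of all kept genes. Of 21 kept genes of 24 listed, 6 (28.6%) were higher in Lgr6+ and 5 (23.8%) in Lgr5+ progenitors, against 28.5% and 23.3% of all kept genes, with a median difference of 0.25. *Pcna*, the sliding clamp of the replication fork, was at 25.3 in Lgr5+ and 57.0 in Lgr6+ progenitors, *Tk1* was listed at 0 in Lgr5+ and was at 11.3 in Lgr6+ progenitors, and *Ccne1* was at 0.717 and 4.19. The proliferation marker *Mki67* was at 0.626 and 3.41, while *Top2a*, at 1.61 and 2.10, did not pass 1.5-fold. *Gins1*, at 4.15 and 0.566, the replicative helicase subunit *Mcm2*, at 11.9 and 3.42, and the licensing factor *Cdt1*, at 2.28 and 0.222, were higher in Lgr5+ progenitors. Whether the clustered genes followed the number of cells in S phase was not tested, since the table holds no values of single samples.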

How the data were processed

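RNA-Seq values of the sorted Lgr5+ and Lgr6+ populations were read from 1 table, in which 4 samples, 2 per population, are already combined. A low-input SMART-Seq kit was used for the cDNA, and the authors used Trimmomatic for trimming, TopHat for mapping, RefGene for annotation and Cufflinks for FPKM (versions not given in the sources used here). Each FPKM value in the deposited table is the authors' value for a population, normalized for transcript length and mapped fragments. The labels name mm10 and the methods mm9, and 81 of 84 deposited intervals overlap the gene of the same name in RefSeq GRCm38, so positions are given as mm10. The table also holds 3 columns of the authors' own comparison (a log2 fold change, a p-value and a q-value), which were not used.

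Members and lists were chosen with earlier results of these data known. The planned limma fit needs values of single samples and was not run, so no p-value, SD or n is given. Genes that reached 1 FPKM in either population were kept, differences were calculated as log2(FPKM + 1), and 1.5-fold was the threshold, which understates differences of low genes. The calculation was tested on simulated data. The table holds no counts, so the depth and the counting error are unknown. No fold is given against a value of 0, which can be a failed estimate. Named genes were each replacement member, the 12 highest clustered members, the 8 largest differences in each direction, and of each list the 3 largest in each direction with a few defining genes. Other members, among them *Hist1h1a*, *Hist1h1b*, *Hist1h1t*, *Hist1h3e*, *Hist1h3g*, *Hist1h2ad*, *Hist1h4k*, *Hist1h2br*, *Hist1h2bg* and *Hist2h2aa2*, were named after their values were seen. Transcripts of GENCODE M1 were matched by symbol for 78 members, and RefSeq promoters (GRCm38.p6), taken as the 250 bases before the start, for 73. No genome of the table's build was used here. Python 3.11.15, numpy 2.4.6, pandas 2.3.3 and matplotlib 3.10.9 were used.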

Additional observations from a re-analysis of the deposited data

How the results depend on the processing

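The table holds 1 combined value per population, so it shows no spread between replicates, and the depth is unknown. No paired analysis was possible because single samples have no value in it, and leaving out each replicate was not run for the same reason. Of the alternatives only the rescalings can turn a sign, and quantile normalization did so in 2 of 35 named members, *H2afy* and *Hist3h2ba*, neither past 1.5-fold, and scaling to the same upper quartile in 0.

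In the main setting 17 of 35 kept clustered genes were higher in Lgr6+ and 6 in Lgr5+ progenitors. These became 8 and 2 of 18 with a minimum FPKM of 5. They were 7 and 3 of 22 for genes that reached 1 FPKM in both populations, and 13 and 9 of 36 after quantile normalization. Shares over all genes were calculated only for the main setting and for genes that reached 1 FPKM in both populations. Only clustered genes without shared 150-base stretches, an alternative chosen after seeing the data, gave 3 and 2, a median difference of -0.050 and a ratio of sums of 0.777. The clustered median of 0.54 was 0.66 with a pseudocount of 0.1, 0.35 as a ratio without a pseudocount, 0.15 without a filter, 0.44 with a minimum FPKM of 5, 0.18 for genes that reached 1 FPKM in both, 0.30 after quantile normalization and 0.53 at the same upper quartile. The ratio of clustered sums, 1.00, was 0.993 with a minimum FPKM of 5, 0.982 for genes that reached 1 FPKM in both and 1.17 after quantile normalization. For replacement genes, quantile normalization gave 2 higher in each direction against 0 in Lgr6+ and 4 in Lgr5+ progenitors, a median of -0.25 against -0.40 and a ratio of 1.34 against 1.06. A 2-fold threshold left 0 replacement genes higher in Lgr5+ progenitors, and no filter gave a replacement median of -0.045. Of 66 kept genes of the supply, deposition and S phase lists with *Cenpa*, 15 were higher in Lgr6+ and 17 in Lgr5+ progenitors, against 28.5% and 23.3% of all kept genes. These became 8 and 11 of the 51 that reached 1 FPKM in both, against 21.4% and 22.5% of all such genes. A 2-fold threshold left 8 of 66 higher in Lgr5+ progenitors. The counts with a higher minimum or fewer members rest on fewer genes, and the cause of the other shifts was not tested.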
